A study of Mus musculus with 24 samples.

Results

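The transcripts of 10 T cell surface glycoproteins were followed through the earliest thymocyte stages of DNA-PK deficient mice with and without a TLX1 transgene. The set comprised the coreceptors Cd4, Cd8a and Cd8b1, the adhesion molecule Cd2, the related receptors Cd5 and Cd6, the costimulatory receptors Cd27 and Cd28, and the surface molecules Thy1 and Cd7. They are 10 of the 18193 genes that the array measures with a probe set of their own. Each gene was read from 1 main probe set, the one with the highest mean signal over all 24 arrays among the probe sets that match that gene alone. The 10 genes have 16 such probe sets among the 45037 probe sets of the Affymetrix mouse array without its control probes, and all 10 main probe sets were among the 27022 kept after the dim ones were left out. Cd4 was the dimmest, at rank 58.1% from the top where 60% were kept.

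Thymocytes were taken from 4 pools of IgHμ-TLX1Tg Prkdc Scid/Scid mice (TLX1) and from 4 pools of Prkdc Scid/Scid mice without the transgene (control), and each pool gave 1 array of DN1, 1 of DN2 and 1 of DN3 cells. All mice therefore carry the Scid mutation, which inactivates the DNA-PK catalytic subunit and prevents completion of antigen receptor rearrangement. The labels name an outbred ICR background for all samples, although the methods trace the transgene to a CD1 line that was crossed with CB17 ICR Scid mice. The labels give an age of 6 to 8 weeks, where the methods give a wider span that starts earlier, and describe the cells of both genotypes as negative for B220 and CD3. The transgene carries the human TLX1 (HOX11) gene behind an immunoglobulin heavy chain promoter, which acts mainly in B cells and is leaky in thymocytes, and its own level was not analysed here. Female mice made up pools 1 and 4 of the TLX1 group as well as pools 2 and 4 of the control group, and male mice all others. A pool mixes several mice of one sex and is the replicate. By the labels, antibodies to CD4 and CD8 were part of the sort and the cells are CD4 and CD8 double negative, divided into CD44+CD25- (DN1), CD44+CD25+ (DN2) and CD44-CD25+ (DN3). Surface CD4 and CD8 were therefore gate criteria, and the part of the gate in the Cd4 and Cd8 signals was not tested.

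CD4 and the CD8 alpha and beta chains bind class II and class I major histocompatibility molecules and bring the kinase Lck to the T cell receptor. CD2 binds CD48 in the mouse, CD28 binds CD80 and CD86, CD27 binds CD70, and CD6 binds ALCAM. CD5 and CD6 are scavenger receptor family proteins that mostly restrain signals from the T cell receptor, Thy1 is a glycolipid-anchored protein that marks mouse thymocytes, and CD7 is an early T and natural killer (NK) cell protein. In the normal thymus DN1 is the least uniform of the 3 fractions, cells commit to the T lineage around DN2, and CD4 and CD8 appear only after the DN stages.

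Signals are MAS5 intensities in the array's linear units with every array scaled to the same trimmed mean, floored at 1 and taken to log2 for the tests. The median probe set signal of an array lay between 15.1 and 24.3, and replicate arrays of a group correlated at 0.882 to 0.975. The genes of the gate differed between stages in the direction of the labels, though Cd44 at DN2, gated as CD44+, was far below DN1. Il2ra at DN1, gated as CD25-, was still above the array medians. Cd44 ran from 892 to 1913 at DN1, 80.3 to 153 at DN2 and 9.52 to 29.0 at DN3, and Il2ra, which encodes CD25, from 488 to 1171 at DN1 against 4270.0 to 5541 at the later stages.

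Control pool 3 and TLX1 pool 2 stood apart. They are also the pools for which the cohort description gives many cells outside the DN1, DN2 and DN3 gates. At DN1 they had Cd8a signals of 1919.5 and 1789 against 73.4 to 242 in the other 6 pools, Cd8b1 signals of 1909 and 1766 against 67.8 to 282, and Cd4 signals of 105 and 99.4 against 4.70 to 15.5. The same DN1 arrays read 3769 and 3193 for the recombinase gene Rag1 against 35.5 to 199 in the other pools, 1296 and 677 for Ptcra, the pre-T cell receptor alpha chain, against 20.8 to 102, and 892 and 1268 for Cd44 against 1373 to 1913. Il2ra did not set them apart at DN1 (574 and 523 against 488 to 1171). At DN2 and DN3 they were the highest pools of their genotype in Cd8a, Cd8b1 and Cd2, and at DN3 also in Cd4 (7.86 and 3.81 against 1.48 to 2.99). Their Rag1 signal was 1541 and 1412 against 1075 to 1320 at DN2 and 3425 and 3154 against 2170.0 to 3161 at DN3, or 1.11 to 1.29 times the median of the other pools. Their part in the results was measured by repeating each comparison with both pools left out.

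**Figure D1:**
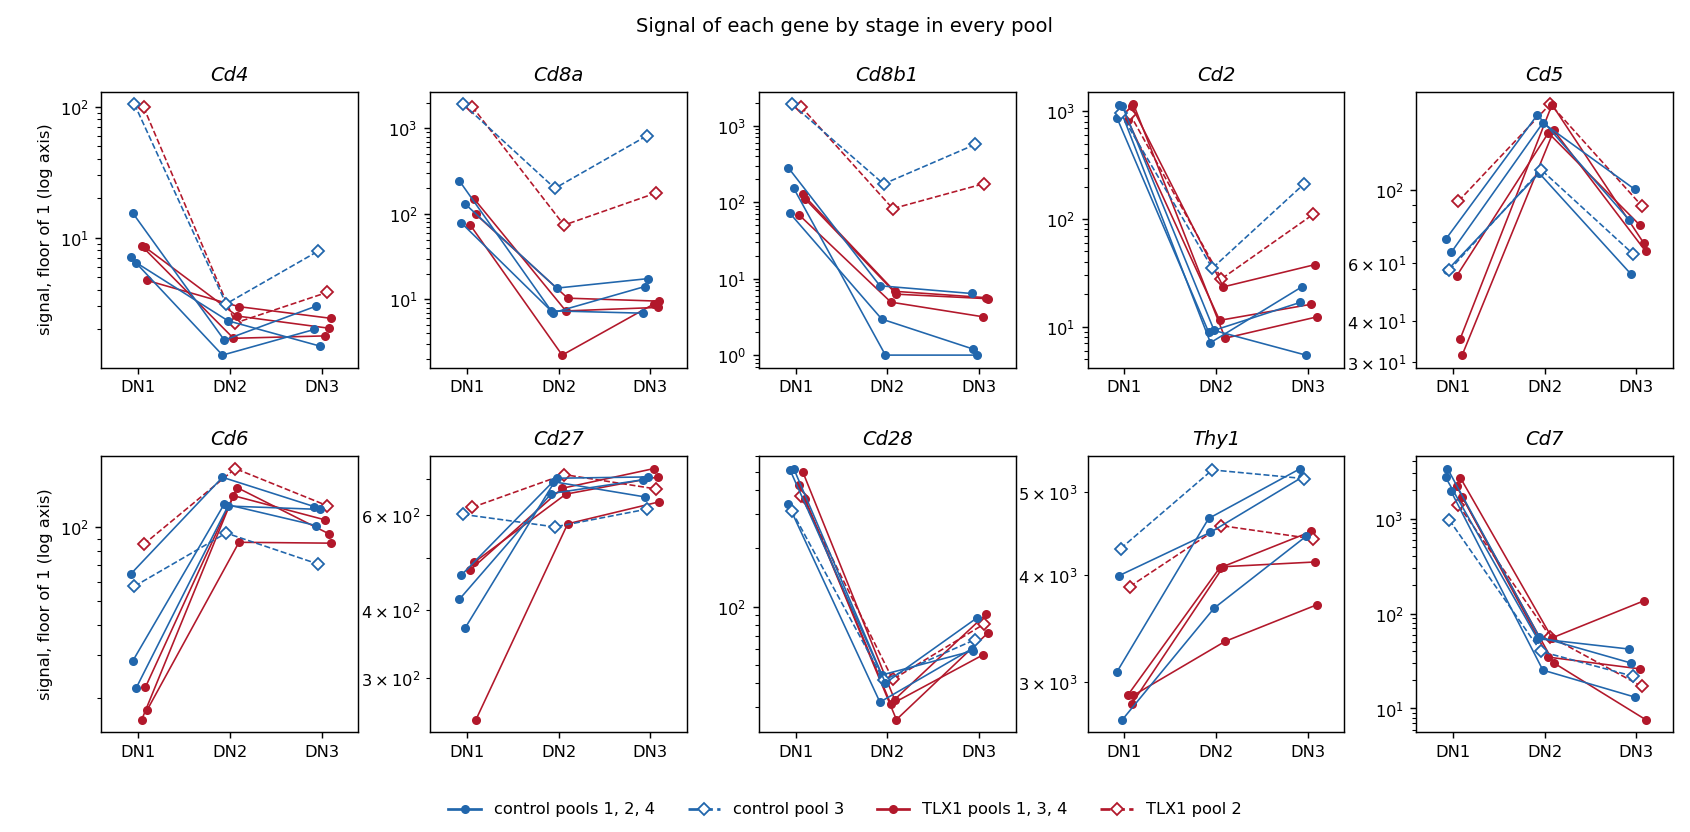
Signal of the main probe set of each of the 10 genes (y axis, array units on a log axis, floor of 1) at DN1, DN2 and DN3 (x axis), 1 line per pool, control in blue and TLX1 in red. Open diamonds on dashed lines are control pool 3 and TLX1 pool 2, whose Cd8a signals at DN1 were 1919.5 and 1789; Cd2, Cd28 and Cd7 drop from DN1 to DN2 in every pool, and Cd5 is highest at DN2 in every pool.

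DN1 also held transcripts of genes listed as markers of other cell types. The summed signal of 9 measured NK cell genes at DN1 ran from 14680 to 35980 across control pools and from 19220 to 30990 across TLX1 pools, with control pool 3 and TLX1 pool 2 the lowest. At DN2 it was 4345 to 5768 in all 8 pools, most of it from Gzma (2343 to 3037) and Nkg7 (1852 to 2569). Ncr1, the NK receptor NKp46, read 1333 to 3883 at DN1 and 7.28 to 16.4 at DN2. Klrk1, Klrd1, Prf1, Eomes and Tbx21 also read at most 17.51 at DN2, and Gzmb 80.3 to 187. The 10 myeloid genes summed to 4291 to 39490 at DN1 and 1001 to 1627 at DN2, the 9 dendritic cell genes to 3984 to 10510 and 757 to 1366, and the 6 measured genes of mature alpha-beta T cells to 1659 to 5140 and 189 to 269. Of the last list, Itgb7 at 887 to 3148 and Klf2 at 647 to 1971 were the brightest genes at DN1. Ccr7 read 20.8 to 106 there, S1pr1 63.1 to 132, Foxp3 6.59 to 18.7 and Cd40lg 1.74 to 24.7. Whether mature alpha-beta T cells were present was not tested. No measured NK, myeloid or dendritic gene averaged under 10 at DN1 in either genotype. The erythroid genes, of which 3 were measured, summed to at most 110 on any array, and 5 of the 9 measured B cell genes were too dim to be kept. Of those kept, Cd79b read 87.9 to 411 at DN1 and 270 to 460.5 at DN3, and Blk 145 to 640 and 97.6 to 201.5. Vpreb1 read 11.4 to 55.1 at DN1 and 279 to 499 at DN3, and Igll1 5.81 to 25.4 and 100.3 to 206. NK cells carry CD2, CD27, CD7 and Thy1 transcripts themselves, and the part of these cells in the DN1 levels below was not tested. In RNA from a sorted fraction, fewer cells that express a gene and less RNA per cell cannot be told apart.

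**Figure D2:**
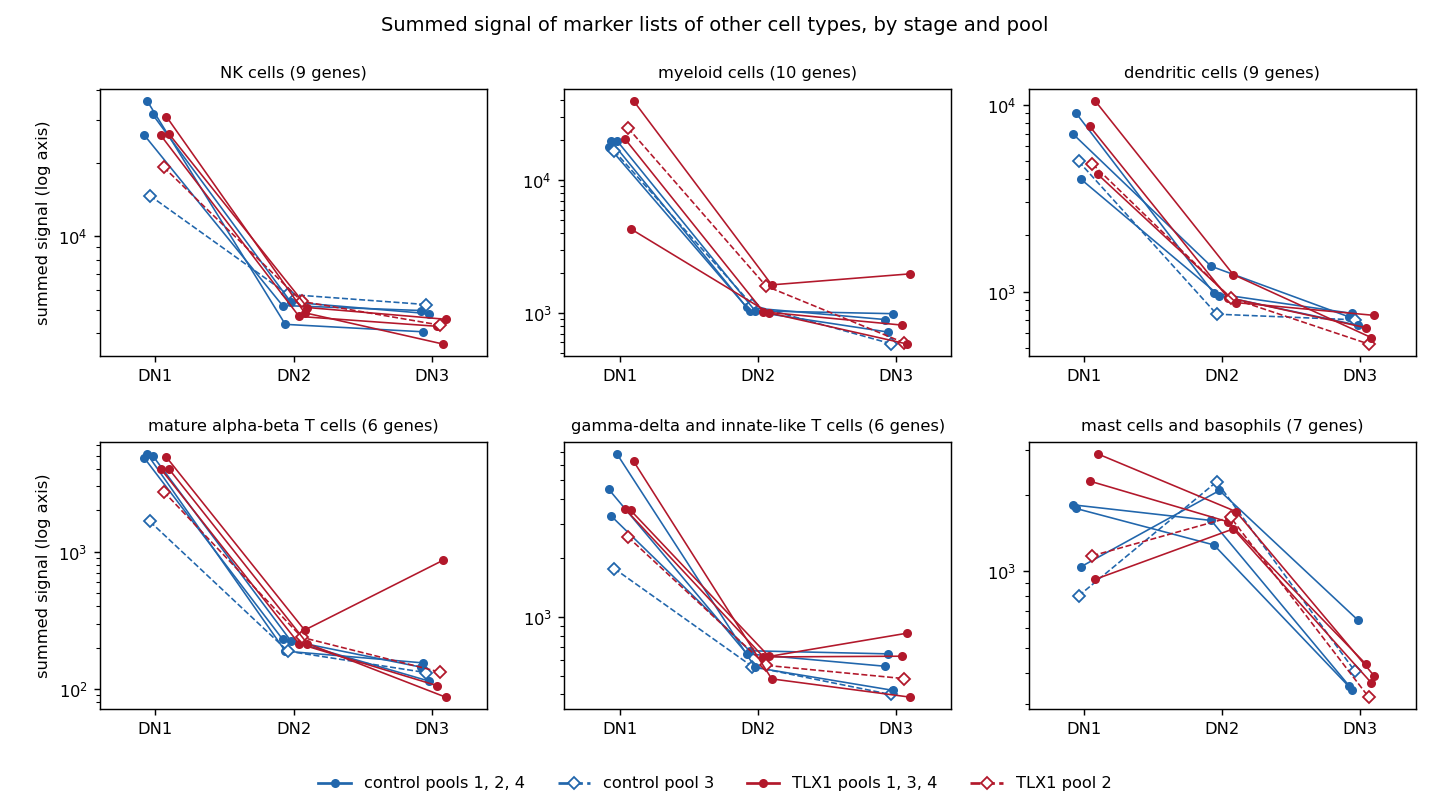
Summed signal of the measured marker genes of 6 other cell types (y axis, array units on a log axis) by stage (x axis) and pool, with control in blue, TLX1 in red, and control pool 3 and TLX1 pool 2 as open diamonds on dashed lines. Most lists are highest at DN1, with NK cell genes at 14680 to 35980 there, and TLX1 pool 3 reads 864 for the mature alpha-beta T cell genes at DN3 against 87.4 to 155 in the other 7 pools.

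The first comparison was of consecutive stages within pools. From DN1 to DN2 the 10 genes split in the same way in both genotypes: Cd4, Cd8a, Cd8b1, Cd2, Cd28 and Cd7 fell and Cd5, Cd6, Cd27 and Thy1 rose (limma, adjusted p at most 0.0292 in control and 0.0151 in TLX1 pools). These 6 lower and 4 higher calls stand beside a background in which a call by itself is common. In control pools 24% of all kept probe sets were called lower and 22.1% higher, and in TLX1 pools 26.3% and 23%. The filter went by the mean over all arrays, and 11.1 was the lowest mean kept. Over the 8 pools the DN2 medians of Cd4, Cd8a, Cd8b1 and Cd2 were 2.27, 8.85, 6.54 and 10.3, under that value. These genes passed through brighter arrays, so their lower calls are not independent of the filter. The Cd4 calls ended with 32 added to every signal (limma adjusted p = 0.0564 in control and 0.0883 in TLX1 pools). The median change of the 10 genes was -3.22 in control and -3.11 in TLX1 pools on the log2 scale, against -0.05 and -0.06 for all kept probe sets. Because the set split in direction, that median lies between the estimates of Cd28 and Cd4. Its size therefore rests in part on the dim Cd4 probe set. Between DN2 and DN3 the members called were Cd28, higher, and Cd5, lower, in each genotype. There 0.488% of probe sets were called higher and 0.807% lower in control pools, and 1.91% and 1.2% in TLX1 pools. DN3 against DN1, which shares its arrays with the other comparisons, gave 3 higher and 6 lower calls in control pools (22.6% and 21.5% of all probe sets) and 4 higher and 6 lower in TLX1 pools (23.4% and 20.5%), Cd5 being the difference. Scaling each array to its median in place of the trimmed mean moves the median change of all probe sets from DN1 to DN2 by 0.29 in control and 0.40 in TLX1 pools, and the share of higher among called probe sets from 48% to 70.6% and from 46.7% to 75.2%. From DN2 to DN3 in TLX1 pools the shift is -0.21 and that share goes from 61.4% to 12.2%, and in control pools the share goes from 37.7% to 19.1% with a shift of -0.09. From DN1 to DN3 the share goes from 51.3% to 67.4% and from 53.4% to 68.8%, with shifts of 0.19 in both. Every member call from DN1 to DN2 kept its direction and remained past the threshold under that scaling.

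**Figure D3:**
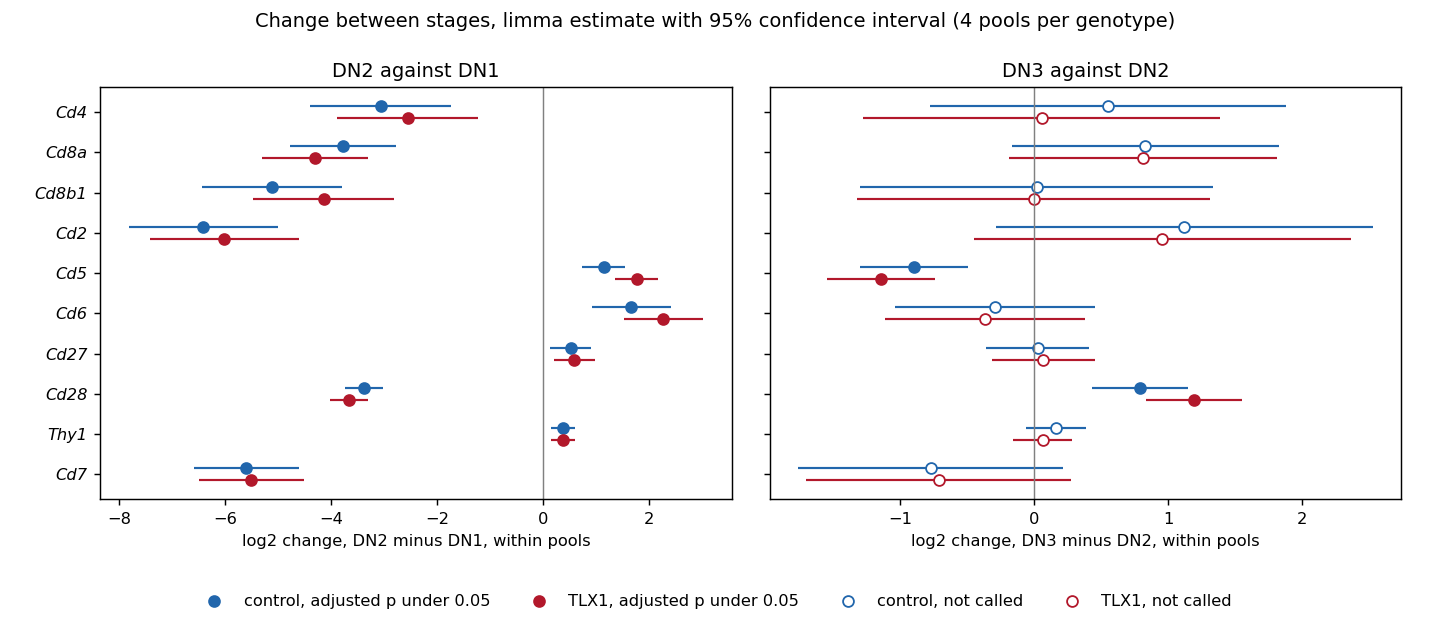
Log2 change of each gene between stages within pools (x axis) for DN2 against DN1 (left) and DN3 against DN2 (right), estimated by limma with its 95% confidence interval, control in blue and TLX1 in red, with filled points for adjusted p under 0.05. All 20 estimates on the left are called, from -6.41 for Cd2 in control pools to 2.27 for Cd6 in TLX1 pools, and on the right the called genes are Cd5 and Cd28.

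Cd8a encodes the chain that CD8 homodimers and heterodimers share. Its signal in control pools 1 to 4 at DN1 was 242, 78.5, 1919.5 and 131, followed at DN2 by 7.36, 6.98, 199 and 13.6 and at DN3 by 6.90, 14.1, 813 and 17.5. The TLX1 pools at DN1 had 73.4, 1789, 150 and 98.4, followed at DN2 by 2.23, 73.8, 7.33 and 10.3 and at DN3 by 8.86, 175, 8.05 and 9.54. Within every pool DN1 was the highest stage, while across pools the DN2 and DN3 values of control pool 3 and of TLX1 pool 2 lay among the DN1 values of other pools. Cd8a was lower at DN2 than at DN1, with a log2 change of -3.77 in control (SE 0.47, adjusted p = 1.86e-05) and -4.31 in TLX1 pools (adjusted p = 5.4e-06). The DN2 signals of most pools lie below the array medians, so the size depends on how dim signals are treated, and adding 32 to every signal before the log2 step gave -2.31 and -2.39, still called. With control pool 3 and TLX1 pool 2 left out the changes were -3.94 and -4.21, with adjusted p-values of 0.000137 and 9.32e-05. From DN2 to DN3 the estimates were 0.83 (95% confidence interval -0.17 to 1.83) and 0.81 (-0.19 to 1.81), neither called.

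The other 4 probe sets of Cd8a were read separately. All were called lower at DN2 than at DN1 in both genotypes, with log2 changes from -4.61 to -1.11 in control and from -4.35 to -1.33 in TLX1 pools. The smallest change came from a probe set whose name marks possible cross-hybridisation, at 18.2 to 86.4 over the 8 pools at DN1 and 7.17 to 32.7 at DN2. It was the one Cd8a probe set not called for DN3 against DN1 in TLX1 pools (adjusted p = 0.0751).

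Cd8b1, the beta chain that makes CD8 a coreceptor of conventional T cells, lies next to Cd8a in the RefSeq annotation with no gene between them. Its DN1 signals of 282, 71.1, 1909 and 152 in control pools against 67.8, 1766, 126 and 111 in TLX1 pools followed those of Cd8a pool by pool. At DN2 it read 8.06, 2.96, 173 and 0.39 in control pools against 4.92, 82.1, 6.82 and 6.26 in TLX1 pools, and at DN3 6.39, 1.19, 567 and 0.44 against 3.17, 175, 5.63 and 5.46. Control pool 4 was under the floor of 1 at both later stages, so the size of the control change depends on the floor, and with 32 added to every signal the changes below become -2.56 and -2.34. The drop from DN1 to DN2 was -5.11 in control (adjusted p = 1.49e-05) and -4.14 in TLX1 pools (adjusted p = 8.59e-05), and without the pair of pools -5.65 and -4.05. DN3 did not differ from DN2 beyond the spread, with log2 changes of 0.02 and -0.004 and intervals from -1.30 to 1.34 and from -1.32 to 1.32. Over all 24 arrays, each centred on its mean, the profiles of Cd8a and Cd8b1 differed by a root mean square of 1.30 on the log2 scale, against standard deviations of 2.75 and 3.35 for the genes themselves.

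Cd4 was close to the floor outside DN1. At DN1 it read 7.07, 15.5, 105 and 6.43 in control pools against 8.62, 99.4, 8.41 and 4.70 in TLX1 pools, with 1.26 to 3.12 over the 8 pools at DN2 and 1.48 to 7.86 at DN3. The DN1 and DN2 values do not overlap, and in both genotypes the highest DN1 value belongs to a pool that stood apart. The probe set passed the brightness filter through its DN1 signals, mainly those of 2 arrays, and at DN2 and DN3 it was far below the array medians, so its change has a direction but no reliable size. The fitted log2 change from DN1 to DN2 was -3.07 in control (SE 0.62, adjusted p = 0.00109) and -2.56 in TLX1 pools (adjusted p = 0.00362). Leaving out the pair of pools reduced the changes to -2.40 and -1.58, still called (adjusted p = 0.000335 and 0.00437), as did leaving out TLX1 pool 2 alone (-1.58, adjusted p = 0.0229). Adding 32 to every signal before the log2 step ended the calls (-0.71 and -0.63, adjusted p = 0.0564 and 0.0883). The other Cd4 probe set was too dim to be kept, at 0.60 to 18.1 over all arrays.

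Cd2 had the most negative estimate of the set from DN1 to DN2. At DN1 it read 869, 1134, 956 and 1116 in control pools against 822, 946, 1119 and 1165 in TLX1 pools. At DN2 the signals were 8.91, 7.11, 34.9 and 9.23, and 11.5, 27.8, 23.4 and 7.82. At DN3 they were 16.8, 23.5, 211 and 5.45, and 16.2, 110, 37.7 and 12.3. The pools that stood apart were ordinary in Cd2 at DN1 and were the highest of their genotype at DN2 and DN3. The log2 change from DN1 to DN2 was -6.41 in control (SE 0.66, adjusted p = 3.62e-06) and -6.01 in TLX1 pools (adjusted p = 5.85e-06). Most DN2 signals lie near or below the array medians, and with 32 added to every signal the changes were -4.51 and -4.40, smaller in size than the -4.79 and -4.70 of Cd7. From DN2 to DN3 it was higher in 3 of 4 control pools and in 4 of 4 TLX1 pools, with estimates of 1.12 and 0.96 that did not pass the test (adjusted p = 0.47 and 0.425) and that were 0.63 and 0.61 without the pair of pools. DN3 remained below DN1, with log2 changes of -5.28 and -5.06.

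Cd7 followed Cd2 in its first step. The signals at DN1 were 2715, 3364, 966 and 1930.1 in control pools against 2190.0, 1390, 2697 and 1695 in TLX1 pools, with the lowest value of each genotype in the pool that stood apart. DN2 read 54.4, 56.8, 39.9 and 25.4 in control pools against 34.7, 57.2, 55.4 and 30.2 in TLX1 pools. DN3 read 42.3, 30.1, 21.9 and 13.2 in control pools against 26.1, 17.1, 136 and 7.63 in TLX1 pools. Cd7 was thus 48.3-fold lower at DN2 than at DN1 in control (log2 change -5.59, SE 0.46, adjusted p = 5.37e-07) and 45.2-fold lower in TLX1 pools (log2 change -5.50, adjusted p = 6.29e-07). DN3 against DN1 gave -6.37 and -6.21, below the estimates of Cd2 for that comparison. From DN2 to DN3 all 4 control pools and 3 of 4 TLX1 pools were lower, with estimates of -0.77 and -0.71 that were not called (adjusted p = 0.482 and 0.398). The TLX1 estimate was -1.38 without TLX1 pool 3 (adjusted p = 0.118). That exception, TLX1 pool 3 at DN3, also read 150 for the integrin gene Itgb7 against 22.3 to 56.8 in the other DN3 arrays, and 624 for Klf2, a regulator of thymic exit, against 34.8 to 73.3. Their part in the Cd7 value was not tested.

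Cd28, the receptor that supplies the second signal for T cell activation, changed at both steps. DN1 gave 339, 510, 313 and 519 in control pools against 426, 375, 497 and 361 in TLX1 pools. At DN2 the signals were 31.99, 44.2, 41.7 and 40.2 in control pools against 31.1, 41.9, 33.0 and 26.0 in TLX1 pools. At DN3 they were 60.3, 59.1, 67.5 and 87.5 in control pools against 56.1, 81.4, 91.6 and 73.2 in TLX1 pools. For this main probe set the ranges of the 3 stages over the 8 pools did not overlap. Cd28 was 10.4-fold lower at DN2 than at DN1 in control (log2 change -3.38, SE 0.17, adjusted p = 1.15e-08) and 12.7-fold lower in TLX1 pools (log2 change -3.66, adjusted p = 6.5e-09). It was then 1.73-fold higher at DN3 in control (log2 change 0.79, adjusted p = 0.0347) and 2.29-fold higher in TLX1 pools (log2 change 1.19, adjusted p = 0.00226), higher in 8 of 8 pools. The control call is near the threshold and was lost under quantile scaling (0.69, adjusted p = 0.129), under median scaling (0.70, adjusted p = 0.101), and on leaving out control pool 1, 2 or 4 (adjusted p = 0.231, 0.0571 and 0.222) or TLX1 pool 3 or 4 (adjusted p = 0.0608 and 0.0561). A second probe set of Cd28 gave -3.97 and -3.75 for the first step and, for the second, 2.08-fold in control (adjusted p = 0.0558) and 2.16-fold in TLX1 pools (adjusted p = 0.0289). Its ranges over the 8 pools at DN2 (16.4 to 48.4) and DN3 (39.0 to 83.2) overlap.

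Cd5 peaked at DN2. The control pools had signals of 70.7, 57.1, 57.0 and 64.5 at DN1, went to 169, 112, 115 and 159 at DN2 and returned to 81.0, 55.5, 64.0 and 100.3 at DN3. In TLX1 pools the values of 54.8, 92.3, 35.4 and 31.5 at DN1 gave way to 149, 182, 181 and 151 at DN2 and then to 77.9, 89.2, 68.9 and 65.1 at DN3. All 8 DN2 values lay above all values of the other stages. Cd5 was 2.20-fold higher at DN2 than at DN1 in control (log2 change 1.14, SE 0.19, adjusted p = 0.000214) and 3.38-fold higher in TLX1 pools (log2 change 1.76, adjusted p = 4.71e-06). It then fell, with log2 changes of -0.90 in control (adjusted p = 0.0312) and -1.14 in TLX1 pools (adjusted p = 0.00615). The control fall lost its call when any 1 control pool or TLX1 pool 1 was left out, with adjusted p-values of 0.221, 0.146, 0.0618 and 0.0943 for control pools 1 to 4 and 0.0628 for TLX1 pool 1, and the TLX1 fall when its 12 arrays were fitted alone (adjusted p = 0.0506). DN3 against DN1 was called in TLX1 pools (log2 change 0.62, adjusted p = 0.0152), though not when TLX1 pool 3 or 4 was left out (adjusted p = 0.0771 and 0.0999), with the 12 arrays fitted alone (adjusted p = 0.0562) or without the block of pools (adjusted p = 0.0754), and was not called in control pools (0.24, interval -0.16 to 0.64).

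Cd6, which belongs to the same receptor family and is separated from Cd5 in the annotation by 1 gene that is not protein coding, rose with it. DN1 signals of 64.4, 28.3, 57.4 and 22.1 in control pools against 16.4, 85.2, 22.2 and 17.9 in TLX1 pools gave way to 160, 125, 94.8 and 122, and to 135, 174, 145 and 86.9, at DN2. Even so the highest DN1 value, 85.2 in TLX1 pool 2, came close to the lowest DN2 value. The change was 1.66 in control (SE 0.35, adjusted p = 0.00139) and 2.27 in TLX1 pools (adjusted p = 0.000114), and 1.97 and 2.68 without the pair of pools. DN3 read 70.8 to 122 and 86.2 to 123, lower than DN2 in 8 of 8 pools, with estimates of -0.29 and -0.37 that were not called (adjusted p = 0.758 and 0.573). The control DN3 to DN1 difference of 1.37 was called (adjusted p = 0.00528) but not without control pool 4 (1.02, adjusted p = 0.0545). Among pairs of the 10 genes, the profiles of Cd5 and Cd6 over the 24 arrays differed by a root mean square of 0.64, which Cd27 with Thy1 (0.258) and Cd5 with Cd27 (0.554) undercut.

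Cd27 and Thy1 changed least from DN1 to DN2. Cd27, a tumour necrosis factor receptor family member, read 370 to 602 in control and 251 to 621 in TLX1 pools at DN1, 571 to 703 and 579 to 714 at DN2, and 616 to 707 and 636 to 733 at DN3. DN1 and DN2 overlap, and control pool 3 was lower at DN2 (571) than at DN1 (602), whereas the other 7 pools were higher. The rise was 1.43-fold in control (log2 change 0.52, SE 0.18, adjusted p = 0.0292) and 1.498-fold in TLX1 pools (log2 change 0.58, adjusted p = 0.0151). It increased to 0.72 and 0.71 with the pair of pools left out. The control call was lost on leaving out control pool 1, 2 or 4 (adjusted p = 0.117, 0.0968 and 0.173) and the TLX1 call on leaving out TLX1 pool 4 (0.38, adjusted p = 0.101). The same pools ended the calls of 0.55 and 0.65 for DN3 against DN1.

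Thy1 was high throughout. It read 3084, 3994, 4297 and 2713 at DN1 in control pools against 2899, 3880, 2828 and 2896 in TLX1 pools, and 3661 to 5310 and 3348 to 4570 at DN2. At DN3 the control pools read 5329, 5206, 5187 and 4440 and the TLX1 pools 4500, 4411, 4145 and 3695. DN2 exceeded DN1 in 8 of 8 pools, by 1.30-fold in control (log2 change 0.38, SE 0.10, adjusted p = 0.00862) and 1.29-fold in TLX1 pools (log2 change 0.37, adjusted p = 0.00904), although the ranges over pools overlap. The control call was lost without control pool 1 (adjusted p = 0.0677) and the TLX1 call without TLX1 pool 1 or 3 (adjusted p = 0.0555 and 0.0681). DN3 was above DN1 by 0.54 and 0.43, and the step from DN2 to DN3 was 0.16 (interval -0.06 to 0.39) and 0.06 (-0.16 to 0.28). Since all arrays were scaled to one trimmed mean, changes of this size are relative to the rest of the array, and under median scaling the first step was 0.66 and 0.77.

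TLX1 was compared with control at each stage, which asks whether the transgene altered these transcripts in young mice. None of the 10 genes was called at DN1, DN2 or DN3, and none had an unadjusted p under 0.05 in limma, where 452, 964 and 1628 of all kept probe sets did. The background was also low, with 0.0037% of probe sets called at DN1, 0.0037% at DN2 and 0.0185% at DN3. By the unpaired test of the study's methods, at the p-value and fold change given there, again none of the members passed, while 265, 408 and 826 probe sets did. Adjusted p-values of the members ran from 0.864 to 1.

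**Figure D4:**
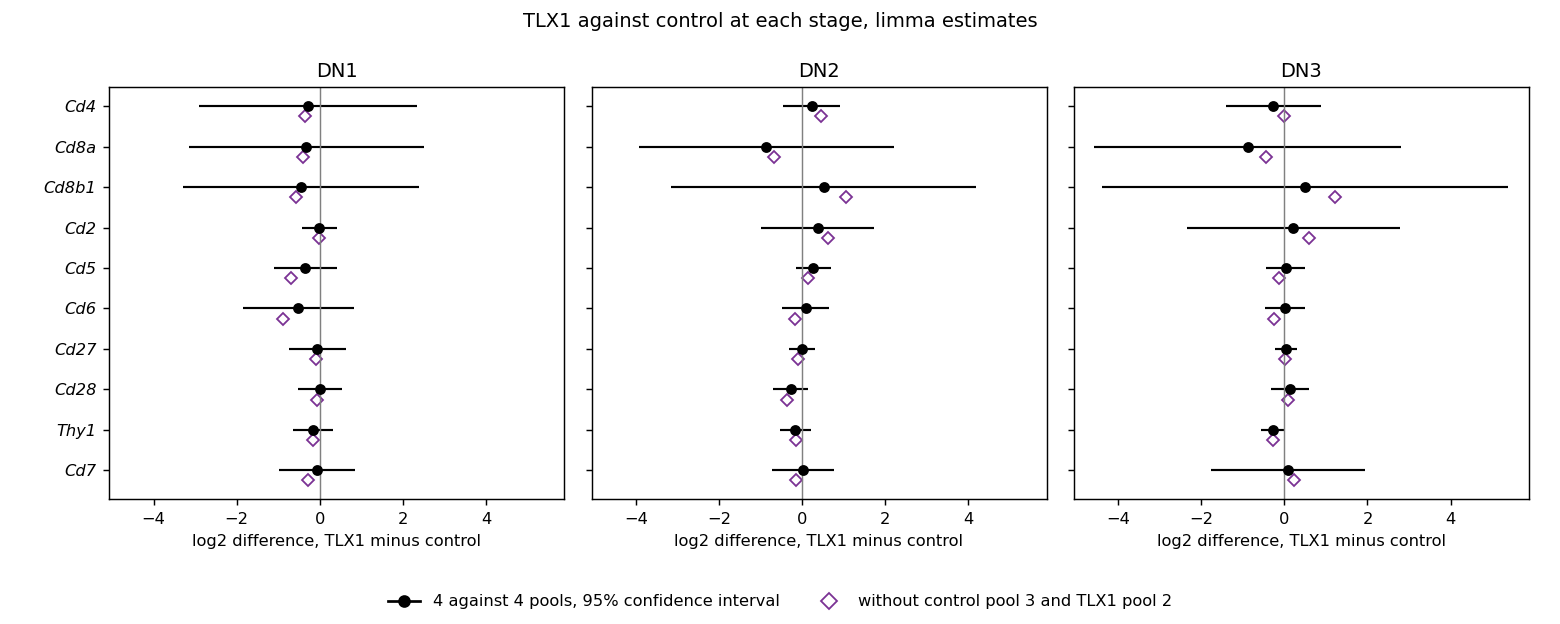
Log2 difference between TLX1 and control pools (x axis) for each gene at DN1, DN2 and DN3, estimated by limma over 4 against 4 pools with its 95% confidence interval (black) and again without control pool 3 and TLX1 pool 2 (open purple diamonds). All 30 intervals include 0, and they are widest for Cd8a and Cd8b1.

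The width of the intervals differed among the genes. For Cd27 the TLX1 minus control difference at DN2 was -0.001 (interval -0.30 to 0.30) and at DN3 0.04 (-0.23 to 0.31). For Cd2 at DN1 it was -0.01 (-0.43 to 0.41), for Cd28 at DN1 0.01 (-0.51 to 0.53), and for Cd5 at DN3 0.03 (-0.45 to 0.51). For Cd8a the intervals ran from -3.15 to 2.50 at DN1, -3.94 to 2.20 at DN2 and -4.57 to 2.80 at DN3, so that differences of several fold in either direction could not be detected. Cd8b1 was as wide, from -3.29 to 2.39, -3.16 to 4.20 and -4.40 to 5.39. Another Cd8a probe set gave 0.004 at DN1 and 0.54 at DN2 (interval -2.55 to 3.64), where the main one gave -0.87. The remaining Cd8a probe sets had negative differences at each stage, and none was called. Without the pair of pools the Cd8a differences were -0.40 (SE 0.47), -0.68 (SE 0.615) and -0.44 (SE 0.36), and those of Cd8b1 -0.56 (SE 0.53), 1.05 (SE 0.73) and 1.23 (SE 0.73). Cd8b1 at DN2 and DN3 then rests on control signals near the floor.

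By the fit the smallest unadjusted p-values belonged to Thy1 at DN3, Cd5 at DN2 and Cd28 at DN2. Cd5 at DN2 was higher in TLX1 pools by 0.27 (interval -0.14 to 0.69) and Cd28 at DN2 differed by -0.27 (-0.69 to 0.15), both with a limma adjusted p of 1. At DN1 the Cd5 estimate had the other sign. TLX1 pools 1, 3 and 4 read 31.5 to 54.8 for Cd5 at DN1, all below the control range of 57.0 to 70.7, and TLX1 pool 2 read 92.3, above it. The difference was -0.35 (interval -1.11 to 0.41) over all pools and -0.70 (SE 0.25) without the pair of pools, with an adjusted p of 1 in both, and -0.14 without TLX1 pool 4. Cd6 at DN1 was 16.4 to 22.2 in the same 3 TLX1 pools and 85.2 in pool 2, against 22.1 to 64.4 in control, a difference of -0.52 (interval -1.84 to 0.81) or -0.88 (SE 0.41) without the pair and -0.27 without TLX1 pool 1. Thy1 at DN3 was -0.27 (interval -0.56 to 0.03, limma adjusted p = 0.864), with ranges that overlap between 4440 and 4500. An index of RNA integrity was taken from the Actb and Gapdh control probes. It is the mean log2 signal near the 3′ end minus that near the 5′ end, so a higher index means lower integrity. At DN3 the index was 0.10 to 0.34 in TLX1 and 0.50 to 0.57 in control pools (two-sided exact permutation p = 0.0286, the smallest that 4 against 4 allows, adjusted p = 0.0856 over 3 stages). At DN1 and DN2 the index differed by -0.20 and -0.30 (exact permutation p = 0.0857 and 0.0571). The part of RNA integrity in the values was not tested beyond a fit with the index as a covariate, in which no member was called. At DN3 the index ranges of the genotypes do not overlap, so that fit cannot separate index from genotype there.

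The stage changes were also compared between genotypes by the interaction of stage and genotype. No member was called and 0% of all kept probe sets were, in each of the 3 interactions, where 968, 801 and 880 probe sets had an unadjusted p under 0.05. One member was among them. The rise of Cd5 from DN1 to DN2 was larger in TLX1 pools by 0.62 on the log2 scale (interval 0.05 to 1.19, limma adjusted p = 1), and by 0.84 without the pair of pools (limma adjusted p = 0.91). The other interaction estimates of the members lay between -0.56 and 0.97, with standard errors up to 0.93.

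The partners of these receptors were described from lists of related genes. Their counts from DN1 to DN2 are read against the shares of all kept probe sets called there, 22.1% higher and 24% lower in control and 23% and 26.3% in TLX1 pools. Of 11 ligands, 8 were bright enough to test. From DN1 to DN2 the log2 change of Alcam, the CD6 ligand, was 1.43 in control and 0.94 in TLX1 pools, and that of Cd80, a CD28 ligand, 1.16 and 1.53. Cd86, the other CD28 ligand, changed by -3.01 and -2.57, and the class I gene H2-D1 by -0.95 and -0.66 (adjusted p at most 0.00512 for these 8 changes). In all 2 ligands were called higher and 3 lower in each genotype, close to those shares, with as many for DN3 against DN1 and none for DN3 against DN2. The median change of the 8 from DN1 to DN2 was -0.13 and -0.10.

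Of the 23 measured cytoplasmic partners, 4 were called higher and 14 lower from DN1 to DN2 in control pools, and 4 and 15 in TLX1 pools, with medians of -0.68 and -0.58. The log2 changes of the adaptor gene Dok2 were -2.28 and -2.47, those of Traf5, whose product binds CD27, -2.28 and -2.04, those of Pstpip1, whose product binds CD2, -1.36 and -1.46, and those of the phosphatase gene Ptpn6 -0.90 and -0.95 (adjusted p at most 1.25e-05 for these 8 changes). The ubiquitin ligase gene Cblb rose from DN2 to DN3 in both genotypes, by 0.86 (adjusted p = 0.0193) and 0.72 (adjusted p = 0.0314), and the membrane adaptor gene Pag1 rose in control pools by 0.48 (adjusted p = 0.0417), with 0.39 in TLX1 pools just outside the threshold (adjusted p = 0.0589).

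Among 14 measured regulators of the coreceptor genes, 5 were called higher and 5 lower from DN1 to DN2 in each genotype, against the same background shares as for the ligands (22.1% and 24% in control, 23% and 26.3% in TLX1 pools), with medians of -0.01 and 0.06. Runx1, which encodes a factor that silences Cd4 in DN cells, rose by 1.73 and 1.65, Patz1, a repressor of the Cd8 locus, by 3.73 and 3.30, and Bcl11b, a T lineage commitment gene, by 0.89 and 0.86, while Ikzf1 changed by -0.73 in both genotypes (adjusted p at most 5.23e-05 for these 8 changes). Lef1 was the gene of this list called from DN2 to DN3, up by 1.91 in both genotypes (adjusted p = 0.0193 and 0.0138). Of 36 other measured T cell surface receptors, 6 were called higher and 21 lower from DN1 to DN2 in control pools and 5 and 22 in TLX1 pools, with medians of -1.08 and -1.01. The costimulator gene Icos changed by -6.68 and -6.76, Slamf7 by -4.98 and -5.51, Cd52 by -4.57 and -4.53, and the antigen-presenting molecule gene Cd1d1 by 1.60 and 1.43 (adjusted p at most 5.2e-07 for these 8 changes). From DN2 to DN3 Tnfrsf4 was called higher in control pools (0.51, adjusted p = 0.0432) and Cd244 lower in TLX1 pools (-1.07, adjusted p = 0.013). In none of the 4 lists was a gene called between TLX1 and control at any stage, which is read against the background shares given for those comparisons.

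The genes with the most similar profiles were found by the root mean square difference of centred log2 signals over the 24 arrays, among 22471 kept probe sets that match a single other gene. Cd28 lay closest to Gimap8 (0.34) and Zap70 (0.37), with a standard deviation of its own of 1.54. Cd7 lay closest to Itgb7 (0.64) and Icos (0.69), against 2.98. Cd2 lay closest to Acpp (0.86) and Sdc1 (0.94), also against 2.98. For Cd8a and Cd8b1 the list held Pdlim4 in both cases, at 1.09 and 1.54, and Camk4 for Cd8b1 at 1.29, and for Cd4 it was led by Glcci1 (0.67). Cd5 lay closest to Sypl (0.33) and Cd6 to Sqle (0.41). Cd27, with a standard deviation of 0.37, lay closest to Hadh (0.15), and Thy1, with 0.30, to Matr3 (0.14). The arrays share pools, so these values describe the 24 arrays and carry no test.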

How the data were processed

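The deposited intensity values are MAS5 signals on a linear scale, which the authors made with Affymetrix Expression Console, with no version given in the sources used here, for 24 arrays of 2 genotypes, 3 stages and 4 pools each. The 2% trimmed mean of every array is 150. Detection flags were not used here. Array control probe sets (64 of 45101 probe sets) were left out, signals were floored at 1 (4.37% to 11.3% of probe sets per array lay below) and only the brightest 60% by mean signal, which reached at least 11.1, were kept. Gene names came from the platform annotation, in which 34945 probe sets match a single gene. No error bar covers mice within a pool, and the number of arrays limits the precision.

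For TLX1 against control, limma 3.58.1 in R 4.3.3 was fitted to the 8 arrays of a stage. Stages and interactions were fitted over 24 arrays with pool as a block, since each pool gave all stages, and p-values were adjusted by the Benjamini-Hochberg method over the kept probe sets, with a call at adjusted p under 0.05. The fits were tested on simulated data without stage or genotype differences other than changes planted in the less variable probe sets. That simulation does not show how the fits perform for variable genes. The 10 genes, the gene lists and the tests were chosen with earlier results of these data known. All 10 genes are named, with at most 4 genes of each list, those with the smallest p in a comparison, and from the markers those that bear on a member. Alternatives covered scaling, filters, an offset, array weights, blocks, sex, the RNA index, the median of a gene's probe sets, the unpaired test of the methods and leaving out pools.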

Additional observations from a re-analysis of the deposited data

Results flagged for a closer look

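In 60 groups of 4 pools (10 genes, 2 genotypes, 3 stages), 6 held a value whose gap to its nearest neighbour took up more of the range than Dixon's 95% critical value for 4 samples. Chance flags about 1 in 20 groups. In 4 of the 6 the value belonged to TLX1 pool 2. It was the highest for Cd8a at DN3 (signal 175, gap 0.945 of the log2 range), for Cd8b1 at DN2 (82.1, 0.884) and at DN3 (175, 0.857), and for Thy1 at DN1 (3880, 0.922). Control pool 3 was the highest for Cd2 at DN2 (34.9, 0.836). Control pool 4 was the lowest for Thy1 at DN3 (4440, 0.853).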

How the results depend on the processing

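Among 627 values of TLX1 against control under 24 alternative settings, 545 kept their direction and 82 turned it, with no call in any (lowest adjusted p = 0.285). Of 1194 stage values 1124 kept direction and call, 49 lost the call and 21, none called, turned. Some settings leave an estimate unchanged by construction, so they can alter its call but not its direction. For stage changes these include the filters, no replicate block and leaving out a pool of the other genotype. For TLX1 against control they include the filters, the replicate block and the unpaired test. Turned log2 differences of TLX1 against control at DN1 were, under quantile scaling, Cd2 0.00512, Cd28 -0.0107 and Cd7 0.0116, under median scaling Cd28 -0.00792, with array weights (whose estimation gave a convergence warning) Cd27 0.124, with the RNA index Cd2 0.208 and Cd7 0.62, with the median of the probe sets Cd4 0.0746, and without the pair of pools that stood apart Cd28 -0.0751. At DN2 they were Cd8a 1.1, Cd6 -0.249 and Cd7 -0.156 with the RNA index, Cd6 -0.173 and Cd7 -0.145 without the pair of pools, Cd27 0.102 under median scaling, Cd27 0.0236 and Cd7 -0.0604 with array weights, and Cd8b1 -0.149 with an offset of 32. At DN3 they were Cd8b1 -2.39, Cd2 -2.16, Cd5 -0.444, Cd6 -0.29, Cd27 -0.204 and Cd7 -3.41 with the RNA index, Cd5 -0.123 and Cd6 -0.251 without the pair of pools, Cd5 -0.0318 and Cd6 -0.0551 under quantile scaling, Cd6 -0.0102 under median scaling, Cd8a 0.25 and Cd6 -0.0118 with array weights, Cd8b1 -0.324 and Cd2 -0.0555 with the offset, and Cd4 0.024 with the median of the probe sets. Leaving out 1 pool at a time gave the following ranges. At DN1 they were Cd4 -1.24 to 0.608, Cd8a -1.36 to 0.629, Cd8b1 -1.49 to 0.482, Cd2 -0.0868 to 0.0828, Cd27 -0.234 to 0.202, Cd28 -0.12 to 0.123 and Cd7 -0.43 to 0.17. At DN2 they were Cd8a -1.8 to 0.255, Cd8b1 -0.483 to 1.99, Cd6 -0.0468 to 0.287, Cd27 -0.0661 to 0.0581 and Cd7 -0.221 to 0.189. At DN3 they were Cd4 -0.586 to 0.216, Cd8a -1.96 to 0.636, Cd8b1 -0.817 to 2.54, Cd2 -0.536 to 1.22, Cd5 -0.106 to 0.179, Cd6 -0.16 to 0.0998 and Cd7 -0.712 to 0.673. From DN2 to DN3 in control pools Cd8b1 turned under quantile scaling (-0.0712), median scaling (-0.0725), array weights (-0.563) and without the pair of pools (-0.547), with a range of -0.547 to 0.461 over single pools, and Cd27 under median scaling (-0.0641) and without the pair (-0.000311), with a range of -0.000311 to 0.0674. In TLX1 pools Cd4 turned under quantile scaling (-0.276), median scaling (-0.156), array weights (-0.00568), the RNA index (-0.00925) and without the pair (-0.181), with a range of -0.181 to 0.18, Cd8b1 with the offset (0.178) and the RNA index (0.0278), with a range of -0.369 to 0.206, and Cd27 (-0.145) and Thy1 (-0.151) under median scaling. The 4 members called higher from DN1 to DN2 in control pools became 2 without the replicate block of pools (2 to 4 over single pools left out). In control pools from DN2 to DN3 the 1 higher call became 0 under quantile scaling, median scaling, no filter, the offset, no replicate block and a fit to 12 arrays alone, and the 1 lower call 0 with no filter and no replicate block (each 0 to 1 over single pools). In TLX1 pools the 1 lower call became 0 in the fit to 12 arrays alone. Higher calls from DN1 to DN3 ran from 1 to 3 in control and 2 to 4 in TLX1 pools over single pools left out. Without the block of pools Cd8a from DN1 to DN2 in control (adjusted p = 0.068) and Cd8b1 in TLX1 pools (adjusted p = 0.0927) were no longer called, a fit that ignores the shared source of the 3 fractions. With no filter the Cd27 calls in control pools were lost (adjusted p = 0.0606 and 0.0506). The cause of these changes was not tested. Replicate numbers were not used to pair TLX1 with control pools. Deviations of same-numbered arrays correlated at -0.349 to 0.478, and 3 of 12 arrays correlated best with their own number. All of these were number 4, at 0.478, 0.398 and 0.362 for DN1, DN2 and DN3. The replicate number as a block gave 0 called members at each stage. The RNA index differences ranged from -0.273 to -0.149 at DN1, -0.396 to -0.144 at DN2 and -0.397 to -0.317 at DN3, where leaving out any control pool brought the exact permutation p to 0.0571. The number of arrays and signal near the floor limit the precision, the latter for Cd4, Cd8a, Cd8b1 and Cd2 at DN2 and DN3.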
